A study of Mus musculus with 7 samples.

Results

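De novo lipogenesis, the making of fatty acids from acetyl-CoA, was followed through 10 genes in the transcriptome of mature white adipocytes that lack the short-chain fatty acid receptor FFA2. The 10 genes were picked by name from 57010 gene identifiers in the count table. They are Acly, Acaca, Acacb, Fasn, Elovl6, Scd1 and Scd2, which encode enzymes of synthesis, elongation and desaturation, and Srebf1, Mlxipl and Thrsp, which encode regulators. All 10 were found and all 10 passed the filter on low counts. The controls were 3 libraries of FFA2 fl/fl mice, which carry the floxed alleles, and the knockouts 4 libraries of Adipoq-F2-KO mice, whose transgenic adiponectin promoter drives Cre to delete FFA2 in cells that express adiponectin, the mature adipocytes. By the labels all mice were male littermates housed together, kept on Teklad LM-485 normal chow (the SC diet) without other treatment and killed at 20 weeks of age. The adipocytes were freed from perigonadal fat with collagenase, and their polyadenylated RNA was sequenced. The labels call each library a separate sample, and no source used here says whether it came from 1 mouse or from pooled mice.

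In lipogenesis, ATP citrate lyase turns citrate exported from mitochondria into acetyl-CoA, acetyl-CoA carboxylase turns that into malonyl-CoA, and fatty acid synthase builds palmitate from both. ELOVL6 lengthens palmitate to stearate, and stearoyl-CoA desaturases turn stearate and palmitate into monounsaturated fatty acids. Transcription of these enzymes in liver and fat is driven by insulin through SREBP-1c, a product of Srebf1, and by glucose through ChREBP, the product of Mlxipl. Thrsp encodes a small nuclear and cytosolic protein that is induced by thyroid hormone and carbohydrate feeding together with these enzymes.

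Each library held between 30478997 and 39992605 counts, so 0 counts allow a level of up to 0.150 to 0.197 CPM (counts scaled to a common library total), a limit that covers counting error only. Counts of Ffar2, the gene of FFA2, were 1094 to 1404 in the control libraries against 38 to 76 in the knockouts. Adipocyte markers were abundant in all 7 libraries, with Adipoq between 2419 and 3762 normalized CPM. Mitochondrially encoded transcripts took 4.41% to 5.77% of the counts in FFA2 fl/fl and 6.61% to 10.3% in Adipoq-F2-KO libraries.

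The promoters of the 3 genes whose libraries did not overlap between the genotypes, Mlxipl, Acacb and Thrsp, are shown with that of Fasn, the synthase itself. Each run is the 250 bases before a RefSeq start site in GRCm38.p6, written in the direction of the gene. The RefSeq table gave 11 start sites for 8 of the 10 genes, all but Scd1 and Scd2. Capitals mark matches, on either strand, to 5 motifs. These are the sterol regulatory element TCACNCCAC, which SREBPs bind, the E-box CACGTG, bound by USF and other factors, the CCAAT box CCAAT, the GC box GGGCGG and the TATA box TATAAA.
Mlxipl, upstream start, chr5:135089640-135089889, + strand: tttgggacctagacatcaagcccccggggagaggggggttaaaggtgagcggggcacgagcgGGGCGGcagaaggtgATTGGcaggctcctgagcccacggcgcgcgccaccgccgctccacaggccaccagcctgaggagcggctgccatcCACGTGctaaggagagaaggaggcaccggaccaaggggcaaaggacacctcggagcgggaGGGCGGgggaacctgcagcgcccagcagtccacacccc
Mlxipl, downstream start, chr5:135106641-135106890, + strand: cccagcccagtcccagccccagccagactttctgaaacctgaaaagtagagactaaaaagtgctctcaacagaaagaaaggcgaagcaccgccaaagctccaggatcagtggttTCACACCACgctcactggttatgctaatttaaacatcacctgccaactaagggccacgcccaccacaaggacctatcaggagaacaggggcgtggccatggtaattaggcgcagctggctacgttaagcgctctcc
Acacb, chr5:114165268-114165517, + strand: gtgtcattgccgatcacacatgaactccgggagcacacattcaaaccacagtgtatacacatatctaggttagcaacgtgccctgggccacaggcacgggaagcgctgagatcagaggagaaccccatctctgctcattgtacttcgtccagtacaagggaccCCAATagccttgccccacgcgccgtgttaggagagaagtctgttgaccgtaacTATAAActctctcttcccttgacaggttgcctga
Thrsp, chr7:97417551-97417800, - strand: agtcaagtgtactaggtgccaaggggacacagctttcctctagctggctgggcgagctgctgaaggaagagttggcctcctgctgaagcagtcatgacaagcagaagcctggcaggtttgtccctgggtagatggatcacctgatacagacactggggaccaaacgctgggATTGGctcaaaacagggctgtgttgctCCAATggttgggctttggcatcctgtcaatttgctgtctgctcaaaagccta
Fasn, chr11:120824548-120824797, - strand: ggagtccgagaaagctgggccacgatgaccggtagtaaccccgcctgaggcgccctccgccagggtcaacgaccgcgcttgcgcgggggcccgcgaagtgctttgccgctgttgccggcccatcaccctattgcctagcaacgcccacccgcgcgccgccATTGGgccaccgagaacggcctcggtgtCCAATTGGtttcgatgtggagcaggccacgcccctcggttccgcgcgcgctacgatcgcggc
The upstream Mlxipl promoter held the only E-box among the 11 member promoters and the downstream one the only sterol regulatory element, at positions -98 and -136 before their starts. Of 32851 mouse promoters of the same length, 6.02% held the E-box and 1.05% the sterol regulatory element. CCAAT boxes stood in 6 of the 11 member promoters against 33.8% of all promoters, among them 3 in Fasn, where 2 of them overlap, 2 in Thrsp and 1 in Acacb. The GC box was in 4 of 11 against 32.7% of all, and the TATA box in 1 of 11, that of Acacb, against 12.4% of all. The Acacb run lies inside the gene, which begins at 114146535 in GRCm38, and gene counts do not show which start was used. A match is a description of the letters and does not show that a factor binds there.

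Levels were compared between genes per kilobase of exon, in TMM-normalized CPM. Scd1 stood far above the rest, with 4783 to 6150 CPM per kilobase over the 7 libraries, and it alone took 2.36% to 3.06% of all counts of a library. Fasn and Thrsp followed, with means of 565 and 539 CPM per kilobase in FFA2 fl/fl, and Fasn was the higher of them in 4 of 7 libraries. Next came Acly at 109 and Srebf1 at 83.3, again with Acly the higher in 4 of 7 libraries. Scd2 at 53.1 and Acaca at 48.4 were close as well, with Scd2 the higher in 6 of 7 libraries. Acacb at 29.99 and Mlxipl at 22.7 were in that order in 6 of 7 libraries, and Elovl6, at 5.49 CPM per kilobase, was the lowest in every library. The order of the means was the same in both genotypes.

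The comparison of Adipoq-F2-KO with FFA2 fl/fl adipocytes asked whether loss of the receptor changes the lipogenic transcripts of the adipocyte on the SC diet. Mlxipl fell in Adipoq-F2-KO adipocytes, by 28.9%, and was the only one of the 10 genes called by edgeR's quasi-likelihood test at a Benjamini-Hochberg adjusted p under 0.05. Over all 17039 tested genes 0.217% were called lower by this rule, and 0.798% higher. Acacb and Thrsp, like Mlxipl, lay lower in each knockout library than in all control libraries but were not called. No overlap in that direction was seen for 8.72% of all tested genes and in the other direction for 8.86%, and it was seen for 3 and 0 of the 10 genes. The other 7 genes overlapped between the genotypes. DESeq2, run as an alternative, called Mlxipl, Acacb and Thrsp lower, 3 of 10 against 1.53% of the 14342 genes to which it gave an adjusted p. Neither tool called any of the 10 genes higher, and 0 were higher at an unadjusted p under 0.05.

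**Figure D1:**
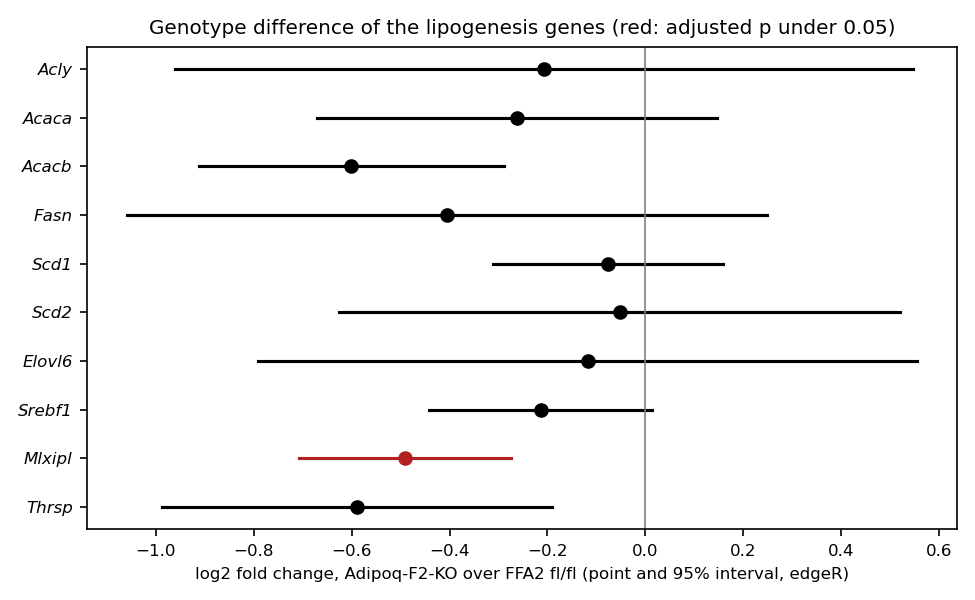
Log2 fold change of each lipogenesis gene in Adipoq-F2-KO (n = 4) over FFA2 fl/fl (n = 3) adipocytes, with the 95% interval of edgeR's fit as a line. All 10 points lie below 0, and the lines of Acacb, Mlxipl and Thrsp do not reach 0, while those of Acly, Fasn, Scd2 and Elovl6 are the widest.

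All 10 fitted log2 fold changes were below 0, with a median of -0.24, where 8443 of the 17039 tested genes were below 0 and their median was 0.00. This shared sign is not 10 separate observations, since 7 of the genes had their highest value in FFA2 fl/fl library 1 and 7 their lowest in Adipoq-F2-KO library 2. Without FFA2 fl/fl library 1, 6 of the 10 were below 0, without Adipoq-F2-KO library 2, 7 were, and without Adipoq-F2-KO library 4, 9 were. In RNA from a cell preparation, fewer adipocytes in the mixture and less of a transcript per adipocyte cannot be told apart.

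**Figure D2:**
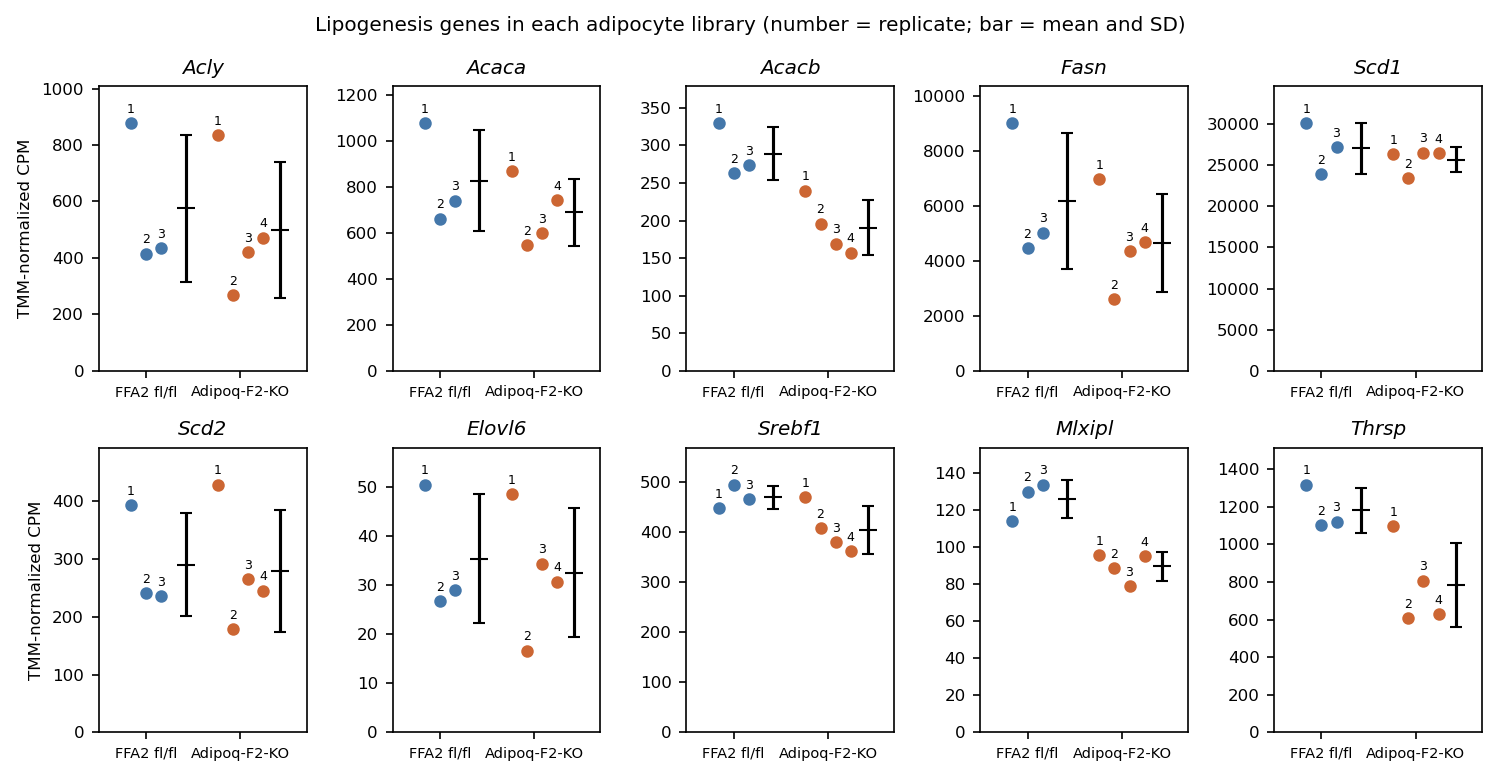
TMM-normalized CPM of the 10 lipogenesis genes in each library, with axes from 0, replicate numbers beside the points, and the mean and SD as black bars. The FFA2 fl/fl libraries (blue, n = 3) of Mlxipl, Acacb and Thrsp all lie above the Adipoq-F2-KO libraries (orange, n = 4), whereas for Acly, Fasn, Elovl6 and Scd2 library 1 of each genotype stands above the others.

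Acly (ENSMUSG00000020917, chromosome 11 from 100367179 to 100418826 in the coordinates of the deposited table) encodes ATP citrate lyase, the source of cytosolic acetyl-CoA. In library order, Acly stood at 877, 415 and 435 normalized CPM in FFA2 fl/fl and at 835, 268, 419 and 472 in Adipoq-F2-KO adipocytes. Library 1 of each genotype was high and Adipoq-F2-KO library 2 low, and the genotypes overlapped through most of their range. The log2 fold change was -0.21 with a 95% interval from -0.96 to 0.55 (adjusted p = 0.796, edgeR's quasi-likelihood test).

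The carboxylases are encoded by Acaca (ENSMUSG00000020532, chromosome 11 from 84020498 to 84292477), whose product makes malonyl-CoA for synthesis in the cytosol, and Acacb (ENSMUSG00000042010, chromosome 5 from 114284596 to 114388822), whose product sits at the mitochondrion and makes the malonyl-CoA that restrains fatty acid import by CPT1. Acaca had 1076, 661 and 740 normalized CPM in the control libraries and 867, 547, 597 and 741 in the knockout libraries, which gave a fitted log2 fold change of -0.26 (standard error 0.19, edgeR adjusted p = 0.491). The values overlapped. Acacb had 329, 263 and 274 normalized CPM in the control libraries and 239, 196, 169 and 157 in the knockout libraries. Every knockout value lay below every control value, and the mean went from 289 ± 35.6 (SD, n = 3) to 190 ± 36.4 (SD, n = 4). The log2 fold change of Acacb was -0.60 (standard error 0.14), with an adjusted p of 0.0675 from edgeR, 0.0538 from limma voom and 0.00155 from DESeq2. An exact two-sided permutation test of the 7 values gave p = 0.0571, where the smallest p that 3 against 4 libraries allow is 0.0286.

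Fasn (ENSMUSG00000025153, chromosome 11 from 120696672 to 120715373) encodes fatty acid synthase. It had 9028, 4474 and 5040 normalized CPM in FFA2 fl/fl and 6987, 2617, 4362 and 4697 in Adipoq-F2-KO libraries. From its highest value (FFA2 fl/fl library 1) to its lowest (Adipoq-F2-KO library 2) the ratio was 3.45-fold. Between the genotypes it had a log2 fold change of -0.41 with a 95% interval from -1.06 to 0.25 (adjusted p = 0.511, edgeR's quasi-likelihood test), and without FFA2 fl/fl library 1 it was -0.03.

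Elovl6 (ENSMUSG00000041220, chromosome 3 from 129326004 to 129432144), the elongase of palmitate, had 50.4, 26.7 and 28.9 normalized CPM in FFA2 fl/fl and 48.5, 16.6, 34.3 and 30.6 in Adipoq-F2-KO libraries. As for Acly, library 1 of each genotype was high and Adipoq-F2-KO library 2 low. Its log2 fold change was -0.12 (standard error 0.31, edgeR adjusted p = 0.881).

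The stearoyl-CoA desaturases Scd1 (ENSMUSG00000037071) and Scd2 (ENSMUSG00000025203) are neighbours on chromosome 19, from 44382894 to 44396318 and from 44282113 to 44295303, and near relatives whose reads the counting could have split. Scd1 was the steadiest of the enzymes, with 30084, 23872 and 27190 normalized CPM in FFA2 fl/fl and 26314, 23397, 26481 and 26416 in Adipoq-F2-KO libraries. Its log2 fold change was -0.08 and the 95% interval ran from -0.31 to 0.16 (adjusted p = 0.751, edgeR's quasi-likelihood test), so a fall by more than 0.31 on the log2 scale lay outside the interval. Scd2 had 393, 241 and 236 normalized CPM in FFA2 fl/fl and 429, 179, 266 and 245 in Adipoq-F2-KO libraries. In Scd2 library 1 of each genotype was again the highest, and its log2 fold change was -0.05 with a wide interval from -0.63 to 0.52 (adjusted p = 0.942 from edgeR). On a scale set by adipocyte marker counts the fitted log2 fold changes of Scd1 and Scd2 were both 0.14 and that of Elovl6 was 0.07, above 0.

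Among the regulators, Srebf1 (ENSMUSG00000020538, chromosome 11 from 60089915 to 60113407) encodes SREBP-1a and SREBP-1c, which gene counts do not separate. It had 447, 495 and 465 normalized CPM in FFA2 fl/fl and 469, 407, 380 and 361 in Adipoq-F2-KO libraries. All but Adipoq-F2-KO library 1 of the knockout values lay below the controls, and the log2 fold change was -0.21 (standard error 0.10, edgeR adjusted p = 0.308). Exons of Srebf1 overlap those of Rai1 on the opposite strand, which had a mean of 1361 counts, and the strand setting of the counting is not given in the sources used here.

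Mlxipl (ENSMUSG00000005373, chromosome 5 from 135118744 to 135167236) encodes ChREBP, the glucose-responsive activator of Acly, Acaca, Fasn and Scd1. Its normalized CPM were 114, 130 and 134 in FFA2 fl/fl libraries and 95.5, 88.6, 78.8 and 95.0 in Adipoq-F2-KO libraries. The genotypes did not overlap, with 126 ± 10.4 (SD, n = 3) against 89.5 ± 7.77 (SD, n = 4). The log2 fold change was -0.49 (standard error 0.10), with an adjusted p of 0.0471 from edgeR, 0.0376 from limma voom and 7.2e-04 from DESeq2. The exact two-sided permutation test gave p = 0.0286, the smallest it can give. The call was near the threshold. Over the 7 fits that each leave out 1 library, its log2 fold change ranged from -0.56 to -0.43 and the edgeR adjusted p from 0.0409 to 0.200, and it was under 0.05 only without Adipoq-F2-KO library 4. Gene counts do not separate the ChREBP forms that start at the upstream and downstream promoters printed above.

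Thrsp (ENSMUSG00000035686, chromosome 7 from 97062145 to 97066937) had 1317, 1103 and 1121 normalized CPM in FFA2 fl/fl and 1095, 608, 806 and 628 in Adipoq-F2-KO libraries. Adipoq-F2-KO library 1 lay just under the lowest control, and with total-count CPM in place of TMM the genotypes overlapped. The log2 fold change was -0.59 (standard error 0.18), with an adjusted p of 0.133 from edgeR and 0.0136 from DESeq2. Without Adipoq-F2-KO library 1 it was -0.79 for Thrsp and -0.73 for Acacb, and both were called (adjusted p = 0.0323 for each from edgeR). That was the only 1 of the 7 fits without a library that called either gene. Over those fits edgeR gave log2 fold changes from -0.79 to -0.48 for Thrsp (adjusted p up to 0.402) and from -0.73 to -0.50 for Acacb (adjusted p up to 0.304).

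The adipocyte's own markers mostly had log2 fold changes below 0, as Mlxipl, Acacb and Thrsp did. Of 12 adipocyte markers 11 had log2 fold changes below 0, with a median of -0.32, and 0 were called by edgeR, while 3 were called lower by DESeq2, and 6 were lower and 1 higher at an unadjusted p under 0.05. Their summed level was 43827, 45695 and 46248 normalized CPM in FFA2 fl/fl and 41405, 39027, 44675 and 32534 in Adipoq-F2-KO libraries. Fabp4, Lpl and Plin4, the most abundant, had log2 fold changes of -0.01, -0.11 and -0.38, and Adipoq and Plin1 -0.23 and -0.33. Markers of other cells lay mostly on the other side, with 13 of 15 macrophage markers above 0 (median 0.61, summed level 662 to 782 normalized CPM in FFA2 fl/fl and 880 to 1069 in Adipoq-F2-KO). All 10 endothelial markers were above 0 (median 0.45, 1187 to 1551 against 1607 to 2493 CPM), as were 9 of 10 fibroblast progenitor markers (median 0.45, 906 to 1200 against 1288 to 1582 CPM). Of the endothelial markers 0 were called by edgeR and 4 were called higher by DESeq2, with 8 higher at an unadjusted p under 0.05, and of the fibroblast markers 0, 1 and 5, all higher. Among the most abundant, Cdh5, Pecam1 and Cldn5 had log2 fold changes of 0.59, 0.51 and 0.46, and Col3a1, Dcn and Col1a1 0.41, 0.48 and -0.05. Lyz2 and Cd68, of macrophage lysosomes, were called higher by edgeR, with log2 fold changes of 0.69 (adjusted p = 0.0383) and 0.72 (adjusted p = 0.0416). DESeq2 called 9 of the 15 macrophage markers higher, and 11 were higher and 1 lower at an unadjusted p under 0.05. Over all 17039 tested genes, 1792 were higher and 1255 lower at an unadjusted p under 0.05. DESeq2 called 670 higher and 220 lower of the 14342 genes to which it gave an adjusted p. The defining markers of macrophages, endothelium and fibroblast progenitors (Adgre1, Pecam1, Pdgfra) were above 0 in every library. The mesothelial marker Msln was at 0 in FFA2 fl/fl library 2 and Adipoq-F2-KO library 3. Crisp1, of epididymal epithelium, was at 0 in FFA2 fl/fl library 3 and Adipoq-F2-KO libraries 1 and 2. Mesothelial markers summed to 9.87 to 25.9 normalized CPM in FFA2 fl/fl, highest in library 1, and to 7.52 to 10.99 in Adipoq-F2-KO. Epididymal epithelium markers summed to 0.410 to 3.91 CPM in FFA2 fl/fl and to 0 to 21.7 in Adipoq-F2-KO, highest in library 3, and 1 of these 7 markers was at 0 in every library. The part of other cells and of the mitochondrial share in the lower Mlxipl, Acacb and Thrsp was not tested beyond the scaling that follows.

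When the adipocyte marker counts set the scale, Mlxipl overlapped between the genotypes, because Adipoq-F2-KO library 4, which had the lowest marker sum, was then the highest of all 7. The log2 fold change of Mlxipl on that scale was -0.26 (standard error 0.16, edgeR adjusted p = 0.411), Acacb and Thrsp were both at -0.40 (adjusted p = 0.202 and 0.230), and none of the 10 genes was called or free of overlap. This scale moved the median of all tested genes to 0.22. Relative to that median Mlxipl stood at -0.48, Acacb and Thrsp at -0.62, and Scd1 at -0.08. Taking out the median largely undoes the marker scaling, so these values lie near the TMM-scaled ones by construction. They are no separate result.

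The spread between libraries of 1 genotype differed widely among the 10 genes. The within-genotype SD of log2 CPM was 0.65 for Acly, 0.59 for Elovl6, 0.57 for Fasn and 0.48 for Scd2, against a median of 0.15 over the 8565 genes that averaged 10 CPM or more. In that set Acly stood at percentile 99.6, Elovl6 at 99.4, Fasn at 99.3 and Scd2 at 98.5, followed by Acaca at 93.5, Thrsp at 92.5 and Acacb at 80.0. Srebf1 at 40.3, Mlxipl at 34.9 and Scd1 at 34.7 were below the middle of the set. For Acly, Elovl6, Fasn, Scd2, Acaca and Scd1 this SD was larger than the size of the log2 fold change between the genotypes.

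**Figure D3:**
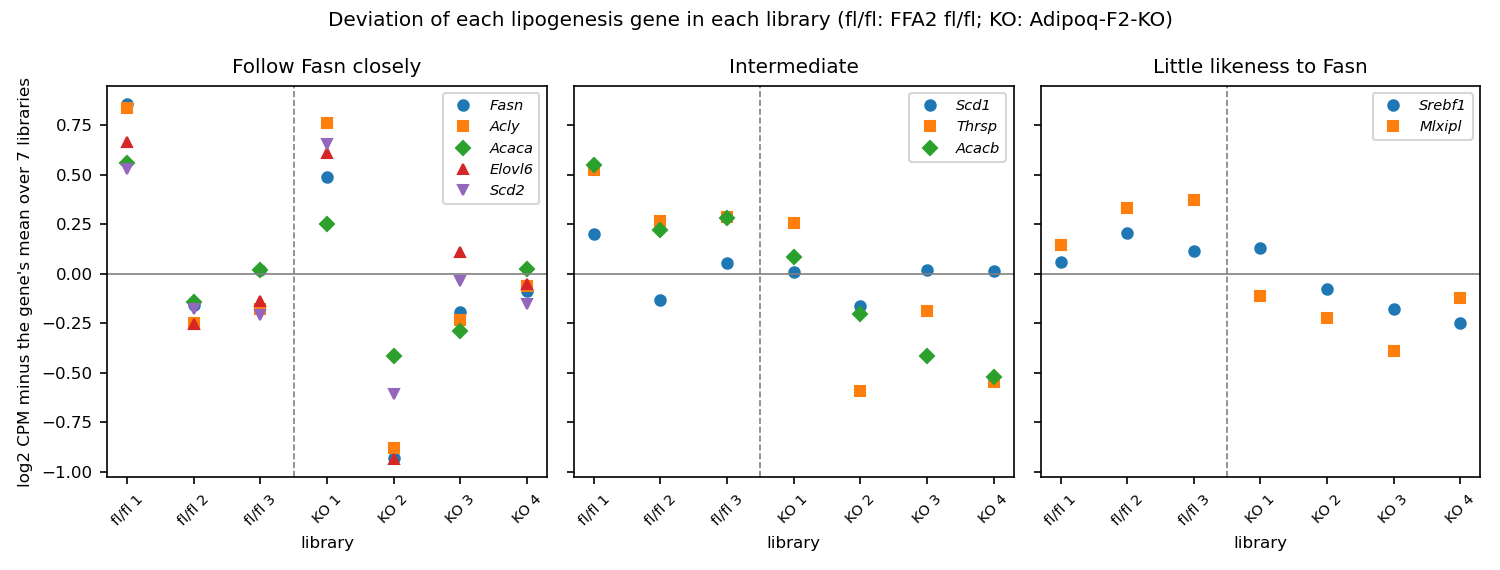
Log2 normalized CPM of each gene minus its mean over the 7 libraries, in panels by likeness to Fasn, with FFA2 fl/fl libraries left of the dashed line and Adipoq-F2-KO libraries right of it. Fasn, Acly, Acaca, Elovl6 and Scd2 are all above their mean in library 1 of each genotype and lowest in KO 2, whereas every Mlxipl point is above 0 in fl/fl and below 0 in KO libraries.

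These enzymes varied together from library to library. Over the 7 libraries the correlation of log2 normalized CPM with Fasn was Pearson's r = 0.97 for Acly, 0.95 for Acaca, 0.95 for Elovl6 and 0.92 for Scd2, which put them at ranks 3, 7, 8 and 30 of 8564 genes, and Spearman's rho was 0.93, 0.96, 0.75 and 0.64. Scd1 (r = 0.84, rho = 0.64) and Thrsp (r = 0.78, rho = 0.75) were less alike, and Acacb (r = 0.60), Srebf1 (r = 0.36) and Mlxipl (r = 0.32) least. The points share libraries and their scaling, and they are given as a description. Without the libraries farthest from the median of Fasn, FFA2 fl/fl 1 and Adipoq-F2-KO 2, r was 0.97 for Acly, 0.89 for Acaca, 0.84 for Elovl6 and 0.90 for Scd2, but 0.27 for Scd1 and 0.41 for Thrsp, whose likeness rested on those libraries. With each genotype's mean taken out of all 7 libraries, r with Fasn was 0.99 for Acly, 0.98 for Elovl6, 0.97 for Scd2 and 0.94 for Acaca. On that measure it was 0.82 for Scd1, 0.80 for Thrsp, 0.53 for Acacb, 0.13 for Srebf1 and -0.11 for Mlxipl.

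Outside the 10 genes, the genes most like Fasn over the 7 libraries were Ubl3 (r = 0.99), Ccdc149 (r = 0.98), Gm5182 (r = 0.97), Tmem182 (r = 0.96) and Lss (r = 0.96), of which Lss encodes lanosterol synthase of the cholesterol pathway. Genes that feed lipogenesis were also alike, with a median r of 0.74 over 13 genes of carbon and NADPH supply against 0.08 over all 8564 genes. Me1 (malic enzyme, r = 0.95), Slc25a1 (the mitochondrial citrate carrier, r = 0.95) and Tkt (transketolase, r = 0.93), singled out after their values were seen, stood at ranks 10, 12 and 23. Idh1, the cytosolic isocitrate dehydrogenase that also makes NADPH, went the other way (r = -0.92, rank 8556), with its highest level, 243 normalized CPM, in Adipoq-F2-KO library 2 and its lowest, 201, in FFA2 fl/fl library 1. The median r with Fasn was 0.23 for 16 other elongation and desaturation enzymes and 0.08 for 25 regulators.

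Ratios within a library compare paired enzymes without any scaling between libraries. There were 76.5, 99.2 and 115 Scd1 counts for each Scd2 count in FFA2 fl/fl and 61.4, 131, 99.7 and 108 in Adipoq-F2-KO libraries, and the genotypes differed by 0.01 on the log2 scale (exact two-sided permutation test, p = 0.971, adjusted over the 3 ratios 0.971). The ratio of Acacb to Acaca was 0.306, 0.398 and 0.370 in FFA2 fl/fl and 0.276, 0.358, 0.283 and 0.212 in Adipoq-F2-KO libraries. These overlapped, with a difference of -0.36 on the log2 scale (exact permutation test, p = 0.143, adjusted 0.214). Elovl6 to Fasn was higher in 4 of 4 Adipoq-F2-KO libraries than in any control, with log2 ratios of -7.48, -7.39 and -7.45 against -7.17, -7.30, -6.99 and -7.26. The difference of 0.26 did not pass the threshold (exact permutation test, p = 0.0571, adjusted 0.171).

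**Figure D4:**
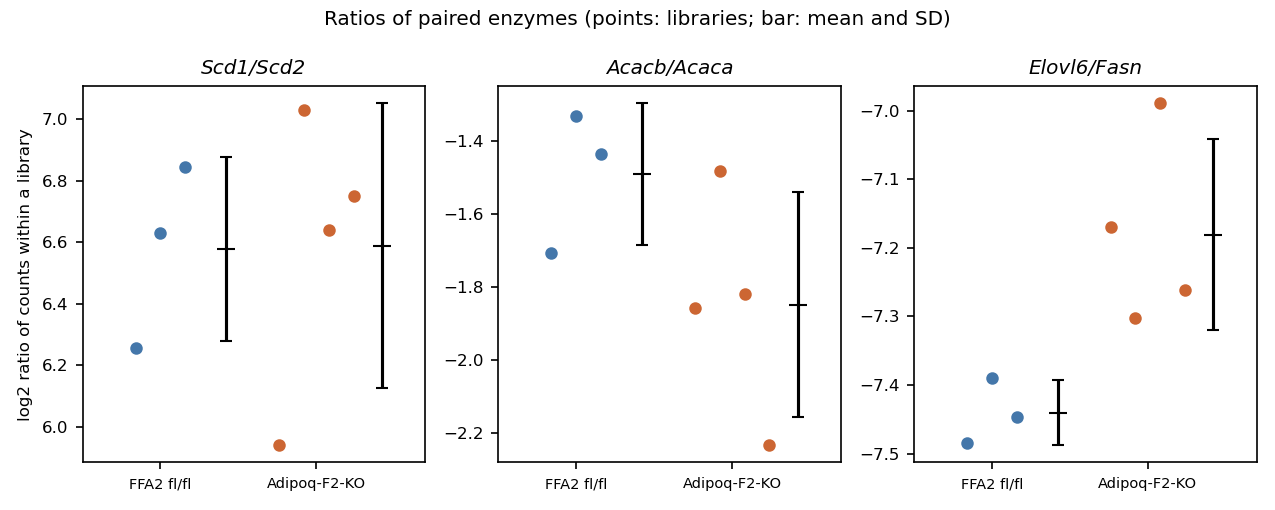
Log2 ratio of the counts of paired enzymes within each library, with points for libraries (FFA2 fl/fl blue, n = 3, Adipoq-F2-KO orange, n = 4) and the mean and SD as black bars, on axes that do not start at 0. The Elovl6 to Fasn ratio is higher in all 4 Adipoq-F2-KO libraries, and the other ratios overlap between the genotypes.

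The rest of the pathway was read from lists of related genes. Over all 17039 tested genes, 1255 were lower and 1792 higher at an unadjusted p under 0.05. DESeq2 called 220 lower and 670 higher of 14342 genes. Of 13 genes that supply carbon and NADPH, 12 had log2 fold changes below 0 with a median of -0.17, but 0 were called by edgeR or DESeq2 and 2 were lower at an unadjusted p under 0.05. The most abundant were Pcx, pyruvate carboxylase, at -0.24, Tkt at -0.34 and Cs, citrate synthase, at -0.11. Of 17 other elongation and desaturation enzymes, 8 were above and 9 below 0 (median -0.06) and 0 were called by edgeR, with 3 higher and 2 lower at an unadjusted p under 0.05. DESeq2 called 1, higher: Acsl4, which activates polyunsaturated fatty acids and was singled out after its values were seen (log2 fold change 0.66, adjusted p = 0.0141 from DESeq2 and 0.108 from edgeR). Of the most abundant, Acsl1, which activates fatty acids, was at -0.22, Fads3 at -0.38 and Hacd2, a dehydratase of elongation, at -0.23.

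Among 28 other regulators of lipogenesis edgeR called 1 higher and 0 lower, with a median of -0.05. At an unadjusted p under 0.05, 3 were higher and 4 lower, against 1792 and 1255 of all 17039 tested genes. DESeq2 called 1 higher and 1 lower, against 670 and 220 of 14342 genes. The lower one was Nr1h3, singled out after its values were seen (log2 fold change -0.36, adjusted p = 0.0321 from DESeq2 and 0.108 from edgeR). The gene called higher by both tools was Mid1ip1, the paralog of Thrsp whose product promotes polymerization of acetyl-CoA carboxylase. It rose from 18.7, 20.97 and 19.01 normalized CPM in FFA2 fl/fl to 31.0, 29.7, 26.4 and 30.8 in Adipoq-F2-KO libraries, or by 0.59 on the log2 scale (standard error 0.11, edgeR adjusted p = 0.0383), while Thrsp itself was at -0.59. Of 14 targets of ChREBP and SREBP-1 outside synthesis, 9 were below 0 and 5 above (median -0.09). Of these 14, 3 were higher and 4 lower at an unadjusted p under 0.05.

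Of 12 genes that respond to fasting and glucocorticoids, 10 were below 0 with a median of -0.40, and 0 were called by edgeR, 3 lower by DESeq2, with 7 lower at an unadjusted p under 0.05. Over all 17039 tested genes 1792 were higher and 1255 lower at that unadjusted p, and DESeq2 called 670 higher and 220 lower of 14342. Pck1, which makes glycerol phosphate precursors in fat, was at -0.68 (adjusted p = 0.113 from edgeR and 0.00544 from DESeq2), Angptl4 at 0.23 and Irs2 at 0.00. Of 16 clock genes 8 lay on either side of 0, with 4 higher and 6 lower at an unadjusted p under 0.05. DESeq2 called 1 of them higher and 3 lower, and edgeR called 1, Per2, lower. Per2 fell from 98.1, 92.0 and 97.4 to 59.9, 72.8, 62.9 and 60.0 normalized CPM, a log2 difference of -0.58 (standard error 0.09, edgeR adjusted p = 0.0332). The hour of killing is not given in the sources used here, and its part in the result was not tested. On the scale set by adipocyte markers none of these related genes was called, and with 1 library left out in turn 0 to 4 of the related genes were.

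**Figure D5:**
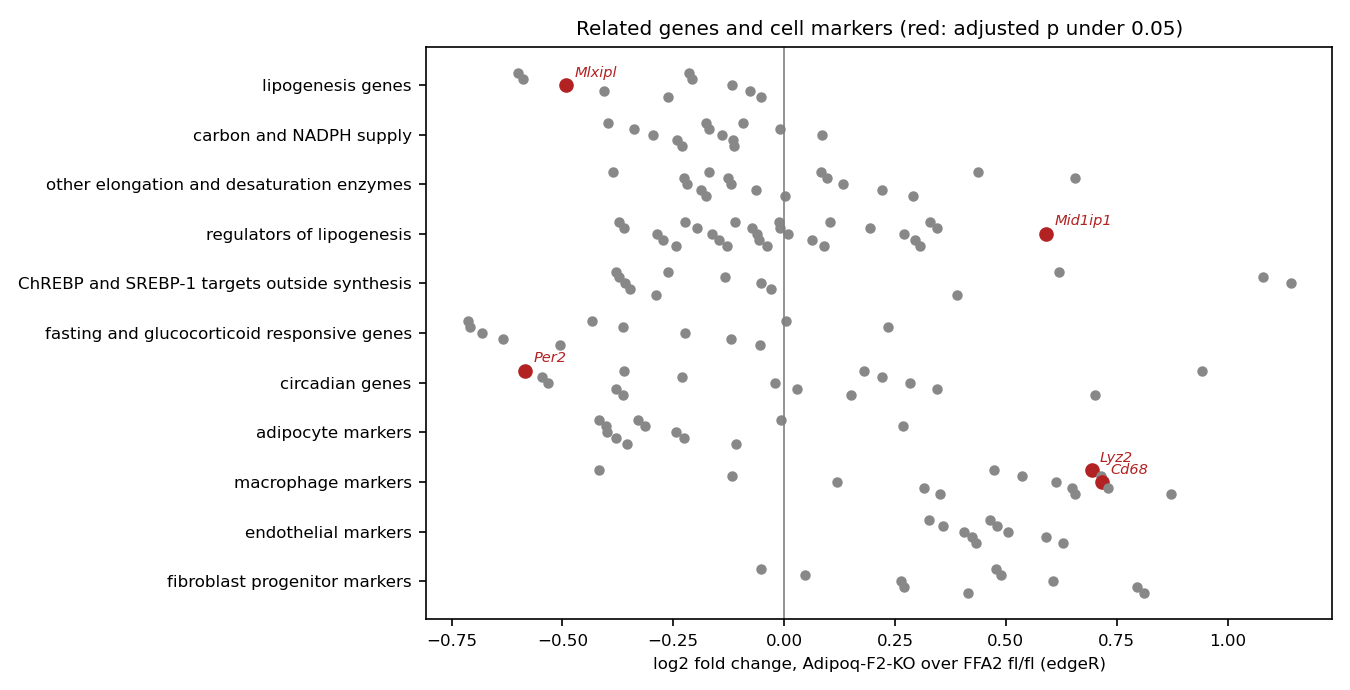
Log2 fold changes (Adipoq-F2-KO over FFA2 fl/fl, edgeR) of the lipogenesis genes, of related gene lists and of cell markers, with 1 point a gene and genes called at an adjusted p under 0.05 in red. The lipogenesis genes and adipocyte markers lie mostly left of 0 and the macrophage, endothelial and fibroblast markers mostly right of it, and the called genes shown are Mlxipl, Mid1ip1, Per2, Lyz2 and Cd68.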

How the data were processed

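The table deposited by the authors holds whole read counts, made by trimming with Trimmomatic, alignment with STAR and counting with featureCounts. Tool versions, the strand setting and the treatment of overlapping or multi-mapped reads are not given in the sources used here. Per the labels the build was GRCm38 (mm10), but the table's coordinates differ from GRCm38 for all 10 genes and are printed as deposited, apart from the promoter coordinates. Most low counts were even (85.5% to 88.8% of the counts from 1 to 49), as when both mates of a pair are counted, so a count of 0 was given a limit of 6 counts. The table's column of exon length was taken as it stands for levels per kilobase.

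From these counts, edgeR 4.0.16 in R 4.3.3 was run after its filterByExpr rule and TMM scaling (glmQLFit and glmQLFTest, genotype alone, two-sided), with Benjamini-Hochberg adjustment over 17039 genes. DESeq2 1.42.0, the authors' tool, and limma 3.58.1 (voom) were alternatives, with other scalings, a filter of at least 1 count, the replicate block and leaving out each library. Exact permutation tests used log2 values. Library pairs of a genotype differed by more than sampling noise, so all 7 were kept. P-values set the genotype difference against the spread between these samples, and both may be technical in part. Scripts were tested on simulated data. The genes named are the 10 members, Ffar2, the called genes of each list or otherwise its 3 most abundant, the 5 genes most like Fasn, and defining markers. Of the related lists, 1 called gene is not reported here, nor drawn in the figure of the lists. The members and lists were chosen with earlier results of these data known. Symbols came from a GRCm38 annotation (52029 of 57010 identifiers matched).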

Additional observations from a re-analysis of the deposited data

Results flagged for a closer look

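Scd1 in the Adipoq-F2-KO libraries had 1 value far from the others, 23397 normalized CPM in library 2 against 26314 to 26481 in the other three, a gap of 0.946 of the group's range, past Dixon's 95% critical value for 4 samples. Among 13 groups of 4 examined, 1 passed, and chance flags about 1 in 20 groups. Library 2 was also the lowest for 7 of the 10 genes, and the Scd1 values of both genotypes overlapped with and without it.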

How the results depend on the processing

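Mlxipl, Acacb, Thrsp, Acaca, Fasn and Srebf1 were below 0 under every alternative, Srebf1 only just on the adipocyte marker scale (-0.0030). Acaca and Fasn were only just below 0 without FFA2 fl/fl library 1 (-0.027 and -0.029), and Acaca was at -0.045 on the marker scale. The number of the 10 genes called lower was 1 with limma voom, DESeq2 size factors, total-count scaling and the replicate block. It was 3 with DESeq2 and with a filter of at least 1 count, and 0 on the adipocyte marker scale, where 3 genes were above 0 (Scd1 0.14, Scd2 0.14, Elovl6 0.073) and 0 rather than 3 were free of overlap, the last an alternative chosen after seeing the data. All genes called numbered 173, and 890 with DESeq2, 1403 with the 1-count filter and 112 on the marker scale. Genes called in the related lists numbered 3, and 11, 18 and 0 in the same order. With 1 library left out, 0 to 2 of the 10 genes were called lower, 0 to 4 of the related lists (0 without FFA2 fl/fl library 1), and 1 to 178 of all genes, namely 1, 41 and 5 without FFA2 fl/fl libraries 1, 2 and 3 and 178, 11, 20 and 166 without Adipoq-F2-KO libraries 1, 2, 3 and 4. The cause was not tested. Ranges over these fits that crossed 0 were -0.57 to 0.23 for Acly, -0.16 to 0.0057 for Scd1, -0.33 to 0.23 for Scd2, -0.38 to 0.23 for Elovl6 and -0.15 to 0.23 for the Scd1 to Scd2 ratio.

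Same-numbered libraries deviated from their genotype means with correlations of 0.21, -0.06 and -0.07. Such values cannot decide whether the numbers stand for shared litters or days, and the main fit did not use them as pairs. Only Adipoq-F2-KO has a library numbered 4, so with the replicate block that library adds nothing to the fitted genotype difference. The replicate block lowered the standard error of Acly from 0.34 to 0.12 and that of Fasn from 0.30 to 0.11. Fasn was then at -0.45 (edgeR adjusted p = 0.0939). With the replicate block anyway, 1 of the 10 genes was called lower, but Acacb (log2 fold change -0.53, adjusted p = 0.0329) in place of Mlxipl (-0.52, adjusted p = 0.0604, both edgeR), and 224 of all genes were called.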
